A study of Mus musculus with 4 samples.

Results

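Haematopoietic growth factor receptors are the surface proteins through which blood cells sense the factors that keep them alive and drive their lineage choice. The 9 receptor genes described are Kit, Flt3, Csf1r, Csf3r, Csf2ra, Csf2rb, Csf2rb2, Il3ra and Epor. They were picked by gene symbol, with earlier results of these data known, and all 9 are among the 56941 features of the count tables. Each was followed in all 4 single-cell RNA libraries of the series and in cell classes gated by marker genes that include none of the 9.

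The libraries were made from mouse bone marrow by droplet capture with poly-dT primed barcodes, and the study asked what the RNA-binding splicing factor Rbm5 does in leukaemia cells as opposed to normal stem and progenitor cells. The WT c-Kit+ and KO c-Kit+ libraries hold normal marrow cells of wild-type and Rbm5 knockout genotype, and their labels name the surface receptor c-Kit, by which stem and progenitor cells are usually enriched. The WT MLL-AF9 and KO MLL-AF9 libraries hold primary leukaemia cells of the same 2 genotypes, driven by the MLL-AF9 fusion and taken at the same endpoint after primary transplantation. Each group is 1 library, so no test between groups was possible, each interval below is a 95% interval of counting error only, and a difference describes 1 library against 1 other. Age, strain, the part of Rbm5 that was deleted, the number of animals pooled and the share of recipient cells in the leukaemias are not given in the sources used here. The same holds for whether the leukaemia cells were sorted for c-Kit, so disease and sort cannot be told apart when leukaemia is set against c-Kit+ marrow. Rbm5 itself was at 75.5, 89.6, 160.5 and 116 CPM (its UMIs per 1000000 of the library) in WT and KO c-Kit+ marrow and then in WT and KO leukaemia. The transcript was therefore higher in the c-Kit+ library labelled KO than in its WT counterpart, and tags outside a deleted part would check nothing, so WT and KO below name the labels of the libraries.

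Kit, Flt3 and Csf1r are receptor tyrosine kinases for stem cell factor, FLT3 ligand, and M-CSF or IL-34. Csf3r is the receptor for G-CSF, the main factor of neutrophil production, and Epor is the receptor for erythropoietin. Csf2ra and Il3ra are the ligand-binding alpha chains for GM-CSF and IL-3. They signal together with the beta chain Csf2rb, and in mice IL-3 can also use the second beta chain Csf2rb2. Kit and Flt3 are known from stem cells, multipotent progenitors and dendritic progenitors, Csf1r from monocytes and macrophages, and the beta chains from basophils, mast cells and myeloid cells.

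Of the 9 receptors, 7 matched the promoter table, which left Csf1r and Csf2rb, and 4 are shown. Epor is shown because nearly all of its UMIs were in erythroid-like cells, Csf3r because late neutrophils held its highest level, Csf2ra because it was higher in the KO leukaemia across the myeloid gates, and Kit because the stem and progenitor-like gate of c-Kit+ marrow held its highest level. Each is 300 bases of RefSeq sequence on GRCm38.p6, from 250 bases before to 50 bases after the transcript start. They lie at chr9:21963527-21963826 on the minus strand (Epor), chr4:126024409-126024708 on the plus strand (Csf3r), chr19:61228369-61228668 on the minus strand (Csf2ra) and chr5:75574737-75575036 on the plus strand (Kit). Capitals mark matches, on either strand, to the GATA factor letters AGATAA, the PU.1 letters GAGGAA, the RUNX letters TGTGGT and the C/EBP letters TTGCNNAA. These letters are held by 11.2%, 28.3%, 16.8% and 10.8% of all 32851 promoters of this length in the table.
Epor: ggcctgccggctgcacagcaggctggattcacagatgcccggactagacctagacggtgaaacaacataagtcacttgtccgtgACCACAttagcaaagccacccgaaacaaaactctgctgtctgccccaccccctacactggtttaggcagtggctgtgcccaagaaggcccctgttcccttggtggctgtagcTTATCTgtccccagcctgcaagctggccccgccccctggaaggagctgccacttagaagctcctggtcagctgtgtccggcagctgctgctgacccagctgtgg
Csf3r: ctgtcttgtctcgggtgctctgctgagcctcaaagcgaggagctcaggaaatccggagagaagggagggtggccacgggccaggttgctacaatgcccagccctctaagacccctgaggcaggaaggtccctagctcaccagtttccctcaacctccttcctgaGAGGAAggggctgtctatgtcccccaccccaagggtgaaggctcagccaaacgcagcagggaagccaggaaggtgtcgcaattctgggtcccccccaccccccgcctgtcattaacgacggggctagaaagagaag
Csf2ra: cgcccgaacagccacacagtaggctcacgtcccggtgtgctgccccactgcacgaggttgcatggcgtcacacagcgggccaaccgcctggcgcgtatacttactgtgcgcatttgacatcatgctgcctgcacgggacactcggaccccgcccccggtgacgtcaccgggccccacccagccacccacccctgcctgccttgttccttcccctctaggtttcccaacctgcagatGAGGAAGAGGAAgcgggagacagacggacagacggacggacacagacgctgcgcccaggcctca
Kit: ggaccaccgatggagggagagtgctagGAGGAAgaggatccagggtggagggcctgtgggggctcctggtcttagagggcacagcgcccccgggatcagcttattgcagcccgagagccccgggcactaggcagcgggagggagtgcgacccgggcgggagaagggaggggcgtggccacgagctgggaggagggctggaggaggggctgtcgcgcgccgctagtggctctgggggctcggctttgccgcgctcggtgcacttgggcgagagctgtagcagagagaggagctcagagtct
The Epor promoter held 1 GATA match on the minus strand, whose first base is at -54 relative to the start site, and 1 RUNX match at -166. Csf3r held 1 PU.1 match at -86, Csf2ra held 2 that abut at -14 and -8, and Kit held 1 at -223. The Csf2rb2 promoter held 2 PU.1 matches, that of Il3ra 1 C/EBP match, and that of Flt3 none of the 4. PU.1 (Spi1) and C/EBP factors act in myeloid cells and GATA1 in erythroid cells. A match describes the letters and was not tested as a binding site.

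In the leukaemia libraries, Kit, Flt3, Csf1r, Csf3r, Csf2rb, Csf2rb2 and Il3ra had lower CPM in KO than in WT, whereas Csf2ra and Epor had higher CPM. Calls were made on log2 ratios of CPM plus a pseudocount of 1, with 2-fold as the limit. Kit and Flt3 were past 2-fold lower, beside 12.6% of the 9901 genes whose mean CPM in the pair was at least 5. At any ratio, 7 of the 9 receptors and 74.6% of these genes were lower in KO. No receptor was past 2-fold higher, beside 5.5% of genes. With 8 of the 9 receptors over that filter (Epor was below it), their median log2 ratio was -0.64, beside a median over all genes of -0.38. Because most genes were lower in the KO leukaemia library, median-ratio size factors, which moved that median to -0.03, were set beside plain CPM. On that scale 6 receptors were lower and 3 higher, Il3ra being the receptor that changed side, 1 (Flt3) was past 2-fold lower and 2 (Csf2ra and Epor) past 2-fold higher. Shares of all genes, here and below, were computed on plain CPM only. Counts with median-ratio size factors therefore have no such share beside them.

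The normal c-Kit+ libraries differed little. Of the receptors, 6 were lower and 3 higher in KO, beside 52.4% of all genes lower. None was past 2-fold in either direction, and the share of all genes past 2-fold was 0.0628% higher and 0.0314% lower. The highest KO over WT ratio was that of Flt3, at 1.19 (1.11 to 1.28), and the lowest that of Csf2ra, at 0.873 (0.842 to 0.906).

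Leukaemia was set against c-Kit+ marrow within each genotype, and these 2 comparisons share libraries with those above. In WT, 8 receptors were higher in leukaemia and 1 lower, beside 33.4% of all genes lower. Csf1r, Csf3r, Csf2ra and Il3ra were past 2-fold higher in leukaemia, beside 16.4% of genes, and Epor was past 2-fold lower, beside 5.89%. With median-ratio size factors 3 were past 2-fold higher and 2 instead of 1 were lower, as Csf2rb changed side, and the median of all genes moved from 0.28 to -0.00038. In KO, 5 were higher and 4 lower, beside 52.1% of all genes lower. There Csf2ra was past 2-fold higher, beside 12.7% of genes, and Flt3 and Epor were past 2-fold lower, beside 12.6%. A library sum cannot tell fewer cells of a type from less RNA per cell, so each receptor was also followed by cell class.

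**Figure D1:**
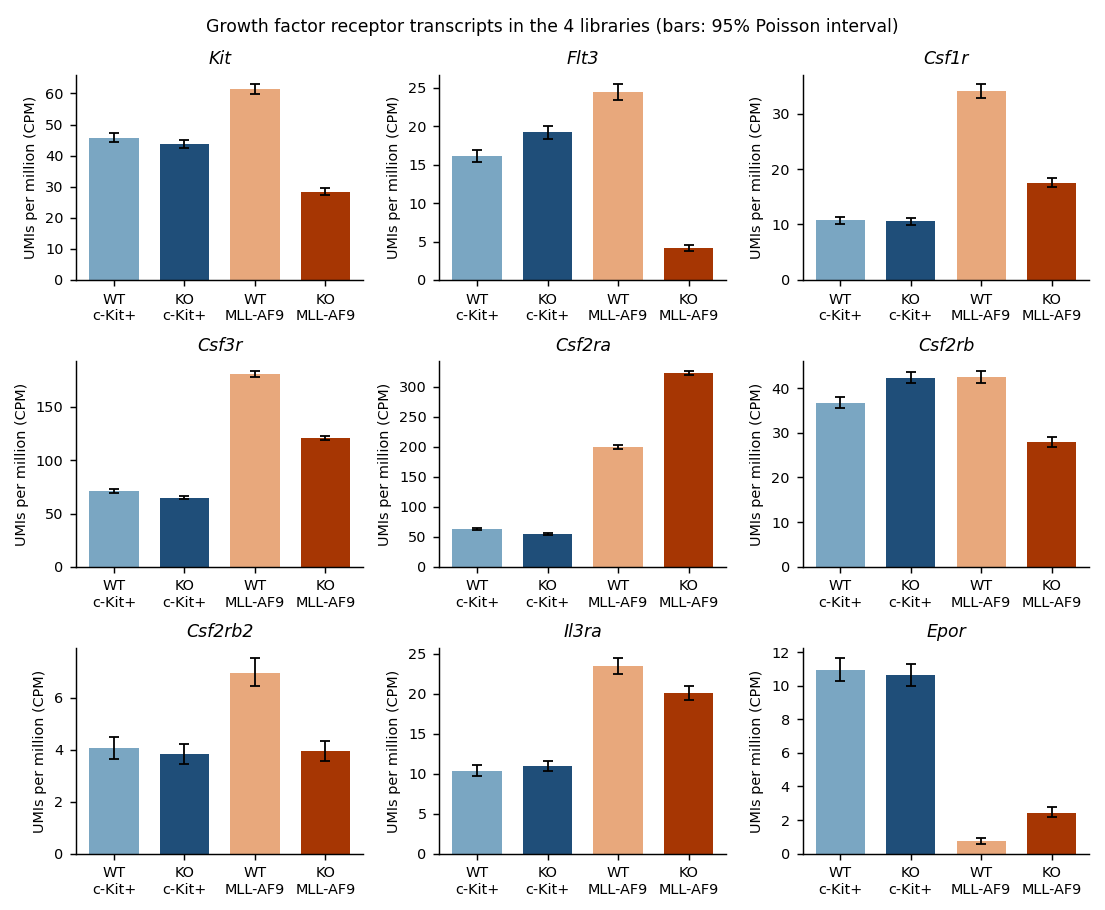
Level of each receptor transcript in CPM (y axes from 0, a separate scale for each gene) in the 4 libraries, 1 bar per library, with 95% Poisson intervals. Flt3 stands lowest in the KO leukaemia at 4.11 CPM, Csf2ra stands highest there at 323 CPM, and Epor is low in both leukaemia libraries.

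After filtering, the libraries held 11778 to 13708 cells and 93004538 to 101255178 UMIs, with medians of 5352 to 7420.5 UMIs per cell. Before filtering, any 2 libraries shared 44 to 69 cell barcodes. The count tables are of 3′ tags and carry no length scaling, so levels are compared within a gene only. A cell was placed in the class of which it had the largest share of markers on, at 3 or more markers and at least 50% of the set. Neutrophil-like gates made up most of the c-Kit+ libraries: primary granule cells were 12.6% and 13.5% of WT and KO cells, immature neutrophils with secondary granule genes 42.3% and 39.2%, and late neutrophils 8.67% and 7.71%. In the leukaemias the same 3 gates held 16.8% and 11.4%, 18.1% and 37.7%, and 11.5% and 19.4% of WT and KO cells, and 34.9% and 19.3% were in no gate. Erythroid-like and T or NK-like gates are present in both leukaemia libraries, and whether their cells belong to the leukaemia or to the recipient was not tested.

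Some gates are less sharp than their names. A gate for class II genes and dendritic markers is called class II-high here, since in WT c-Kit+ marrow immunoglobulin genes were among its leading genes, its median was 1695 UMIs per cell and 91.5% of its cells had the least number of markers needed. The stem and progenitor-like gate of the WT leukaemia held 74 cells, 82.4% of them at the least number, and the eosinophil genes Prg2 and Prg3 were among its leading genes. The monocytic gate of the KO leukaemia was led by Ccl2, Fn1 and S100a4 and had none of its own markers among its 10 leading genes. In the leukaemias 16.6% to 40.8% of cells in the 4 myeloid gates were at the least number, so these gates are ranges of a marker score.

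**Figure D2:**
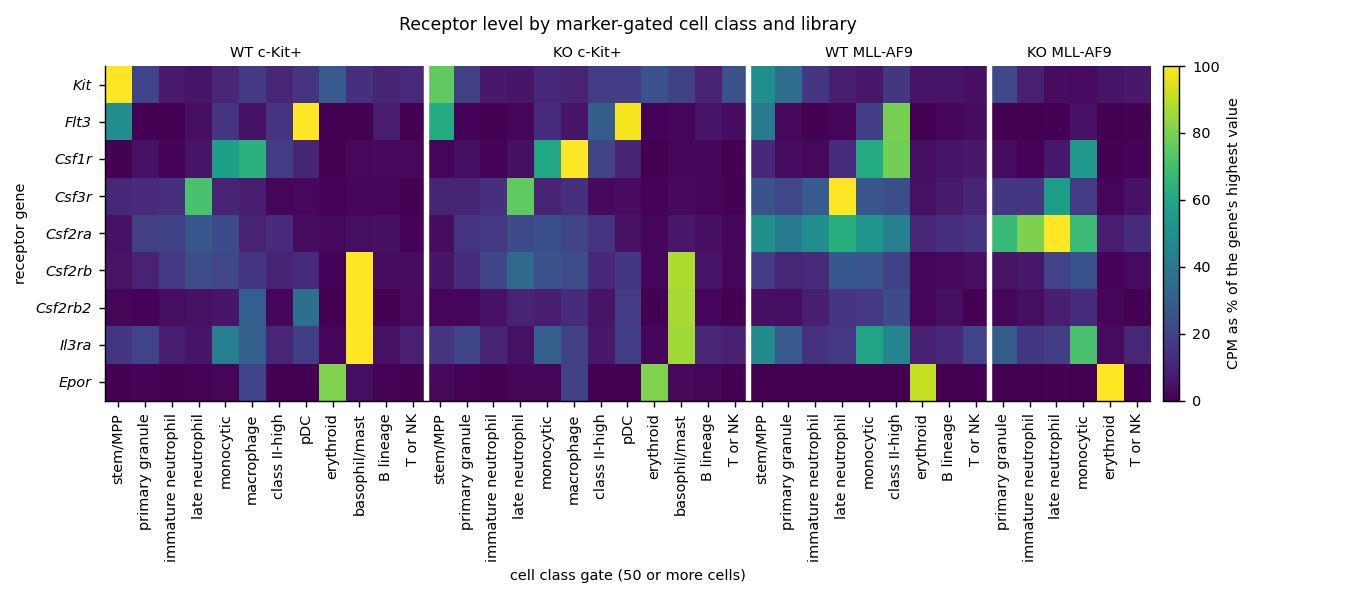
Receptor level by library and marker-gated class (columns, gates with 50 or more cells), each row scaled as a percentage of that gene's highest CPM. Epor stands out in erythroid columns, Csf2rb and Csf2rb2 in the basophil or mast columns of the c-Kit+ libraries, and Csf2ra in the myeloid columns of the KO leukaemia.

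Kit, the stem cell factor receptor and the antigen that names the c-Kit+ libraries, is a gene of 21 exons (chromosome 5, 75574916 to 75656722, plus strand of GRCm38). It was at 45.8 CPM (44.4 to 47.2, 4295 UMIs) in the WT c-Kit+ library, 43.9 CPM (42.6 to 45.2, 4435 UMIs) in the KO c-Kit+ library, 61.3 CPM (59.8 to 63.0, 5705 UMIs) in the WT leukaemia and 28.4 CPM (27.4 to 29.5, 2875 UMIs) in the KO leukaemia. The WT leukaemia was highest and the KO leukaemia lowest, while both c-Kit+ libraries lay between them. Relative to WT, Kit in KO was at 0.463 (0.442 to 0.484) in leukaemia, and c-Kit+ marrow gave 0.958 (0.918 to 0.999).

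By class, Kit was highest in the stem and progenitor-like gate, at 268 CPM (246 to 292) in WT and 203 CPM (185 to 222) in KO c-Kit+ marrow, and at 133 CPM (106 to 166) in the WT leukaemia. Within the c-Kit+ stem gate KO over WT was 0.755 (0.667 to 0.855). Erythroid-like cells followed in WT c-Kit+ marrow (76.9 CPM) and carried 26.0% of all Kit UMIs of that library. In the leukaemias the highest of the neutrophil gates was the primary granule gate, where WT was at 96.3 and KO at 57.1 CPM, and Kit decreased along the series to 42.7 and 24.0 CPM in immature and 22.8 and 8.53 CPM in late neutrophils. The same gates of c-Kit+ marrow held 54.4, 19.5 and 14.9 CPM in WT and 50.4, 18.1 and 16.2 CPM in KO, where immature and late neutrophils did not differ beyond counting error in either library. Kit was lower in KO than in WT leukaemia within each myeloid gate, with ratios of 0.592 (0.551 to 0.637) in the primary granule gate, 0.561 (0.509 to 0.619) in the immature, 0.374 (0.285 to 0.488) in the late neutrophil and 0.452 (0.344 to 0.588) in the monocytic gate. In the erythroid and T or NK gates the intervals of the ratio held 1.

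The c-Kit+ label was set against the Kit transcript. At 2000 UMIs per cell the share of cells with a Kit UMI was 6.23% (5.80 to 6.69) in the WT and 6.53% (6.09 to 6.99) in the KO c-Kit+ library, and without thinning in 17.3% and 18.1%. In the late neutrophil gate, where little Kit is known, the thinned shares were 2.32% and 2.57%. In the stem gate they were 46.7% and 39.6%. A cell without a UMI at this depth may still hold the transcript, and surface protein was not measured. Summed stem and progenitor markers were 234 and 235 CPM in the WT and KO c-Kit+ libraries, with none of 8 at 0, and neutrophil-like gates outnumbered the stem gate, which held 1.64% and 1.81% of cells.

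Flt3, a receptor of early multipotent and dendritic progenitors that is often mutated in human acute myeloid leukaemia (chromosome 5, 147330741 to 147400489, minus strand), was at 16.1 CPM (15.3 to 17.0, 1514 UMIs) in the WT c-Kit+ library, 19.2 CPM (18.4 to 20.1, 1945 UMIs) in the KO c-Kit+ library, 24.5 CPM (23.5 to 25.5, 2274 UMIs) in the WT leukaemia and 4.11 CPM (3.72 to 4.52, 416 UMIs) in the KO leukaemia. The KO leukaemia was below all 3 other libraries, which lay within 1.27-fold of their neighbour. In leukaemia KO stood at 0.168 (0.151 to 0.187) of the WT level, against 1.19 (1.11 to 1.28) in c-Kit+ marrow, so the directions were opposite.

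In c-Kit+ marrow Flt3 was highest in plasmacytoid dendritic-like cells, at 368 CPM (333 to 406) in WT and 362 CPM (328 to 399) in KO, and next in the stem gate, at 180.3 CPM (162 to 199.7) and 227 CPM (209 to 247). These 2 gates held 26.4% and 24.2% of the Flt3 UMIs of WT c-Kit+ marrow, although each had few cells. In the WT leukaemia the class II-high gate was highest at 293 CPM (256 to 335), followed by the stem gate at 149.7 CPM and the monocytic gate at 68.2 CPM, and the monocytic gate held 40.0% of the UMIs. The KO leukaemia had fewer than 50 cells in the stem and class II-high gates, so no level is given there, and its monocytic gate was at 18.6 CPM (15.9 to 21.5). Within gates the leukaemia ratio was 0.272 (0.230 to 0.320) in the monocytic, 0.232 (0.156 to 0.335) in the primary granule, 0.199 (0.114 to 0.337) in the immature and 0.456 (0.273 to 0.762) in the late neutrophil gate. Flt3 was therefore lower in KO within these gates as well as in the library sum, on 177, 34, 22 and 32 UMIs of the KO library. Of the 6 gates compared, T or NK included, Flt3 was lower beyond counting error in 5, in 4 with markers on above 0.5 or 2 times their mean or with at least 4 markers, and in 3 with Scrublet doublets removed, and it was higher in none of these. Summed class II-high markers were 565 CPM in the WT and 197 CPM in the KO leukaemia, with none of 8 at 0. Summed plasmacytoid markers were 436 and 311 CPM, with none of 7 at 0. Most of that sum was Runx2, Tcf4 and Bst2, at 274, 105 and 56.2 CPM in WT and 214, 62.2 and 32.7 CPM in KO. Siglech, Ccr9, Cox6a2 and Klk1 were at 0.441, 0.591, 0.183 and 0.0323 CPM in WT and 0.198, 0.830, 0.247 and 0.00988 CPM in KO. The plasmacytoid gate held 11 and 4 cells, and the part of either set in the library ratio was not tested. The 5′ end of Flt3 overlaps the antisense gene Gm26597 over 936 bases.

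Csf1r, the M-CSF receptor on which monocytes and macrophages depend (chromosome 18, 61100598 to 61132149, plus strand), was at 10.7 CPM (10.1 to 11.4, 1007 UMIs) in the WT c-Kit+ library, 10.6 CPM (9.97 to 11.2, 1071 UMIs) in the KO c-Kit+ library, 34.1 CPM (32.9 to 35.3, 3169 UMIs) in the WT leukaemia and 17.5 CPM (16.7 to 18.3, 1773 UMIs) in the KO leukaemia. Both leukaemia libraries were above both c-Kit+ libraries, although with the same class weights the KO leukaemia was at 0.931 of KO c-Kit+ marrow, and the c-Kit+ libraries did not differ beyond counting error. Relative to WT, Csf1r in KO was at 0.514 (0.485 to 0.545) in leukaemia, and c-Kit+ marrow gave 0.986 (0.904 to 1.08).

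Monocytic cells had nearly the same Csf1r level wherever they were gated, at 120.0 CPM (108 to 133) and 126 CPM (114 to 139.5) in WT and KO c-Kit+ marrow and 130.2 CPM (124 to 137) and 115 CPM (108 to 122) in the WT and KO leukaemia. They held 34.9%, 37.1%, 54.8% and 61.8% of each library's Csf1r UMIs, and made up 2.53%, 2.80%, 14.4% and 8.65% of its cells. In the leukaemias the within-gate KO over WT ratio was 0.882 (0.817 to 0.952) in monocytic cells, nearer 1 than the library ratio, while it was 0.358 (0.256 to 0.501) and 0.506 (0.404 to 0.635) in immature and late neutrophils, where the gene was lower than in monocytic cells. In primary granule cells, where it was also low, WT was at 6.40 and KO at 6.85 CPM, and the interval of the ratio of 1.07 (0.843 to 1.36) holds 1. Macrophage-like cells of c-Kit+ marrow were at 135 CPM (93.1 to 190.0) and 212 CPM (152 to 289), on 60 and 59 cells. With gates of at least 4 markers, or of at least 2 markers, the monocytic gate of WT c-Kit+ marrow was highest in place of the macrophage gate. With the same class weights in both leukaemia libraries the ratio was 0.813. Summed monocytic markers were 677 CPM in the WT and 434 CPM in the KO leukaemia, with none of 6 at 0. The last 873 bases of the gene overlap Hmgxb3 on the other strand, and as strand counting is not given in the sources used here, tags of the 2 genes there cannot be told apart.

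Csf3r, the G-CSF receptor of the neutrophil lineage (chromosome 4, 126024550 to 126044440, plus strand), was at 71.0 CPM (69.3 to 72.7, 6659 UMIs) in the WT c-Kit+ library, 65.0 CPM (63.4 to 66.6, 6568 UMIs) in the KO c-Kit+ library, 181 CPM (178 to 183, 16810 UMIs) in the WT leukaemia and 121 CPM (119 to 123, 12233 UMIs) in the KO leukaemia. Both leukaemias were above both c-Kit+ libraries, and the KO library was the lower one in each pair. In leukaemia KO stood at 0.668 (0.653 to 0.684) of the WT level, against 0.915 (0.884 to 0.947) in c-Kit+ marrow.

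Late neutrophils were the class with the highest Csf3r level in each library, at 409.6 CPM (388 to 432) and 433 CPM (408 to 458) in WT and KO c-Kit+ marrow and 573 CPM (554 to 593) and 318 CPM (308 to 329) in the WT and KO leukaemia. The rise from immature to late neutrophils was 5.12-fold in WT c-Kit+ marrow and 3.50-fold in the WT leukaemia. Within the leukaemia gates KO stood at 0.736 (0.694 to 0.781) of WT in primary granule, 0.556 (0.529 to 0.585) in immature, 0.555 (0.530 to 0.582) in late neutrophil and 0.650 (0.602 to 0.703) in monocytic cells, and it was also below 1 in the erythroid and T or NK gates, at 0.372 (0.200 to 0.698) and 0.448 (0.252 to 0.779). Late neutrophils were 11.5% of WT and 19.4% of KO leukaemia cells, and with the same class weights the ratio was 0.603. All genes had a median log2 ratio in the 6 gates of -0.47 to -0.22, and relative to it Csf3r was at -0.18 in primary granule and -0.59 in immature neutrophils.

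Csf2ra, the GM-CSF receptor alpha chain (chromosome 19, 61223957 to 61228429, minus strand), was at 63.1 CPM (61.5 to 64.7, 5914 UMIs) in the WT c-Kit+ library, 55.1 CPM (53.6 to 56.5, 5569 UMIs) in the KO c-Kit+ library, 199.8 CPM (197 to 203, 18580 UMIs) in the WT leukaemia and 323 CPM (319 to 326, 32662 UMIs) in the KO leukaemia. The leukaemias were above c-Kit+ marrow, and KO was above WT in leukaemia but below it in c-Kit+ marrow. Relative to WT, Csf2ra in KO was at 1.61 (1.59 to 1.64) in leukaemia, and c-Kit+ marrow gave 0.873 (0.842 to 0.906), and leukaemia over c-Kit+ was 3.17 (3.08 to 3.26) in WT and 5.86 (5.69 to 6.03) in KO.

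The higher level in the KO leukaemia held in each of the 4 myeloid gates. Primary granule cells held Csf2ra at 173 CPM (WT) and 282 CPM (KO), 204 and 335 CPM in immature neutrophils, 263 and 417 CPM in late neutrophils and 219.7 and 284 CPM in monocytic cells. The ratios were 1.63 (1.57 to 1.70), 1.65 (1.59 to 1.71), 1.58 (1.496 to 1.68) and 1.29 (1.23 to 1.36). In erythroid and T or NK cells the intervals of the ratio held 1, at 0.698 (0.471 to 1.05) and 0.869 (0.553 to 1.37). In c-Kit+ marrow the primary granule and immature neutrophil gates were lower in KO, at 0.808 (0.752 to 0.868) and 0.868 (0.823 to 0.916). At 2000 UMIs per cell the share of cells with a Csf2ra UMI was 33.8% (32.9 to 34.6) in the WT and 47.4% (46.4 to 48.3) in the KO leukaemia, beside 6.49% and 5.05% in the erythroid gates, and 12.9% (12.3 to 13.5) and 11.2% (10.6 to 11.7) in WT and KO c-Kit+ marrow.

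The beta chain Csf2rb, shared by the receptors for GM-CSF, IL-3 and IL-5 (chromosome 15, 78325752 to 78353847, plus strand), was at 36.7 CPM (35.5 to 38.0, 3444 UMIs) in the WT c-Kit+ library, 42.3 CPM (41.1 to 43.6, 4279 UMIs) in the KO c-Kit+ library, 42.4 CPM (41.1 to 43.8, 3946 UMIs) in the WT leukaemia and 27.9 CPM (26.9 to 28.9, 2824 UMIs) in the KO leukaemia. The WT leukaemia and the KO c-Kit+ library did not differ beyond counting error, and the KO leukaemia was lowest. In leukaemia KO stood at 0.657 (0.626 to 0.690) of the WT level, against 1.15 (1.10 to 1.21) in c-Kit+ marrow, so in both pairs its direction was opposite to that of Csf2ra, its partner in the GM-CSF receptor.

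Basophil or mast-like cells of c-Kit+ marrow had the highest Csf2rb level, at 270.3 CPM (245 to 297) in WT and 237 CPM (211 to 265) in KO, and no leukaemia library had 50 such cells. Immature neutrophils, of which there were many more, held 47.4% of the UMIs in WT c-Kit+ marrow, with levels of 45.1 CPM (WT) and 56.6 CPM (KO). The c-Kit+ ratio was 1.32 (1.18 to 1.48) in primary granule, 1.26 (1.18 to 1.34) in immature and 1.45 (1.20 to 1.75) in late neutrophils. In leukaemia it was 0.488 (0.422 to 0.562), 0.531 (0.475 to 0.594) and 0.736 (0.650 to 0.833) in the same gates, while in monocytic cells, with levels of 72.2 CPM (WT) and 68.2 CPM (KO), the interval held 1.

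Csf2rb2, the beta chain that serves IL-3 alone in mice (chromosome 15, 78282507 to 78305721, minus strand), was at 4.05 CPM (3.65 to 4.48, 380 UMIs) in the WT c-Kit+ library, 3.83 CPM (3.46 to 4.23, 387 UMIs) in the KO c-Kit+ library, 6.98 CPM (6.45 to 7.54, 649 UMIs) in the WT leukaemia and 3.95 CPM (3.57 to 4.36, 400 UMIs) in the KO leukaemia. The WT leukaemia was highest, and the other 3 libraries did not differ from their neighbours beyond counting error. It was highest in basophil or mast-like cells as well, at 82.4 CPM (69.0 to 97.7) in WT and 71.8 CPM (57.7 to 88.2) in KO c-Kit+ marrow, where that gate held 34.7% and 23.3% of its UMIs. Plasmacytoid-like cells were at 30.5 CPM (20.97 to 42.8) and 14.7 CPM (8.56 to 23.5), and did not differ from macrophage-like cells beyond counting error. In the leukaemia pair KO stood at 0.566 (0.499 to 0.642) of WT for the library and 0.419 (0.322 to 0.545) in immature neutrophils. The 2 beta chain genes are near copies: 8.19% of the 90-base windows of the Csf2rb transcript were found unchanged in Csf2rb2, but none of 511 in its last 600 bases, where 3′ tags fall. Tags from the shared part are uncertain between them.

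Il3ra, the IL-3 receptor alpha chain (chromosome 14, 14346275 to 14356011, plus strand), was at 10.4 CPM (9.74 to 11.1, 974 UMIs) in the WT c-Kit+ library, 10.98 CPM (10.3 to 11.6, 1110 UMIs) in the KO c-Kit+ library, 23.5 CPM (22.5 to 24.5, 2184 UMIs) in the WT leukaemia and 20.1 CPM (19.2 to 20.97, 2033 UMIs) in the KO leukaemia. Both leukaemias were above both c-Kit+ libraries, which did not differ beyond counting error. Its KO to WT ratio in the leukaemia pair was 0.855 (0.804 to 0.909), but higher in KO with median-ratio size factors (log2 ratio 0.13), and 1.06 (0.969 to 1.15) in c-Kit+ marrow. In c-Kit+ marrow the basophil or mast gate was highest, at 79.9 CPM (66.7 to 95.02) and 68.6 CPM (54.9 to 84.7), and monocytic cells were at 34.2 and 24.2 CPM. Monocytic cells of the leukaemias were at 46.8 CPM (43.2 to 50.6) in WT and 56.9 CPM (52.2 to 61.9) in KO, a ratio of 1.22 (1.08 to 1.37). They were the highest gate in the KO leukaemia, while in WT they did not differ from the stem gate (37.8 CPM) beyond counting error. Intervals held 1 in the other 5 gates, with 1.05 (0.925 to 1.19) in primary granule and 1.11 (0.940 to 1.31) in immature neutrophils, and with the same class weights the ratio was 1.12. The lower library sum of the KO leukaemia thus did not hold within its myeloid gates, of which the monocytic gate held 14.4% of WT and 8.65% of KO cells. At its 5′ end Il3ra overlaps the antisense gene Gm48860 over 990 bases.

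Epor, the erythropoietin receptor (chromosome 9, 21958897 to 21963506, minus strand), was at 10.95 CPM (10.3 to 11.6, 1027 UMIs) in the WT c-Kit+ library, 10.6 CPM (9.99 to 11.3, 1073 UMIs) in the KO c-Kit+ library, 0.763 CPM (0.596 to 0.963, 71 UMIs) in the WT leukaemia and 2.45 CPM (2.15 to 2.77, 248 UMIs) in the KO leukaemia. The c-Kit+ libraries did not differ beyond counting error, and both were above the leukaemias. KO over WT was 3.21 (2.46 to 4.24) in leukaemia, on 71 UMIs in WT, and 0.969 (0.889 to 1.06) in c-Kit+ marrow.

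Erythroid-like cells carried 93.0%, 91.5%, 88.7% and 89.5% of Epor UMIs in WT and KO c-Kit+ marrow and then in WT and KO leukaemia. Their level was 65.7 CPM (61.6 to 70.0), 65.8 CPM (61.7 to 70.0), 74.1 CPM (56.9 to 94.8) and 81.5 CPM (71.1 to 93.0) in that order, and the KO over WT ratio within the gate in leukaemia was 1.10 (0.828 to 1.48), whose interval holds 1. The libraries differed in how many such cells they held, with 6.84%, 8.86%, 0.615% and 1.94% of cells, and summed erythroid markers were 1179, 1063, 101 and 302 CPM, with none of 8 at 0. With the same class weights in both libraries Epor was at a ratio of 1.19 in KO against WT leukaemia and 1.04 and 1.17 in leukaemia against c-Kit+ marrow in WT and KO, so its lower level in the leukaemia libraries did not hold with equal weights. In the primary granule gate of the WT leukaemia no Epor UMI was seen, which allows up to 0.120 CPM.

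**Figure D3:**
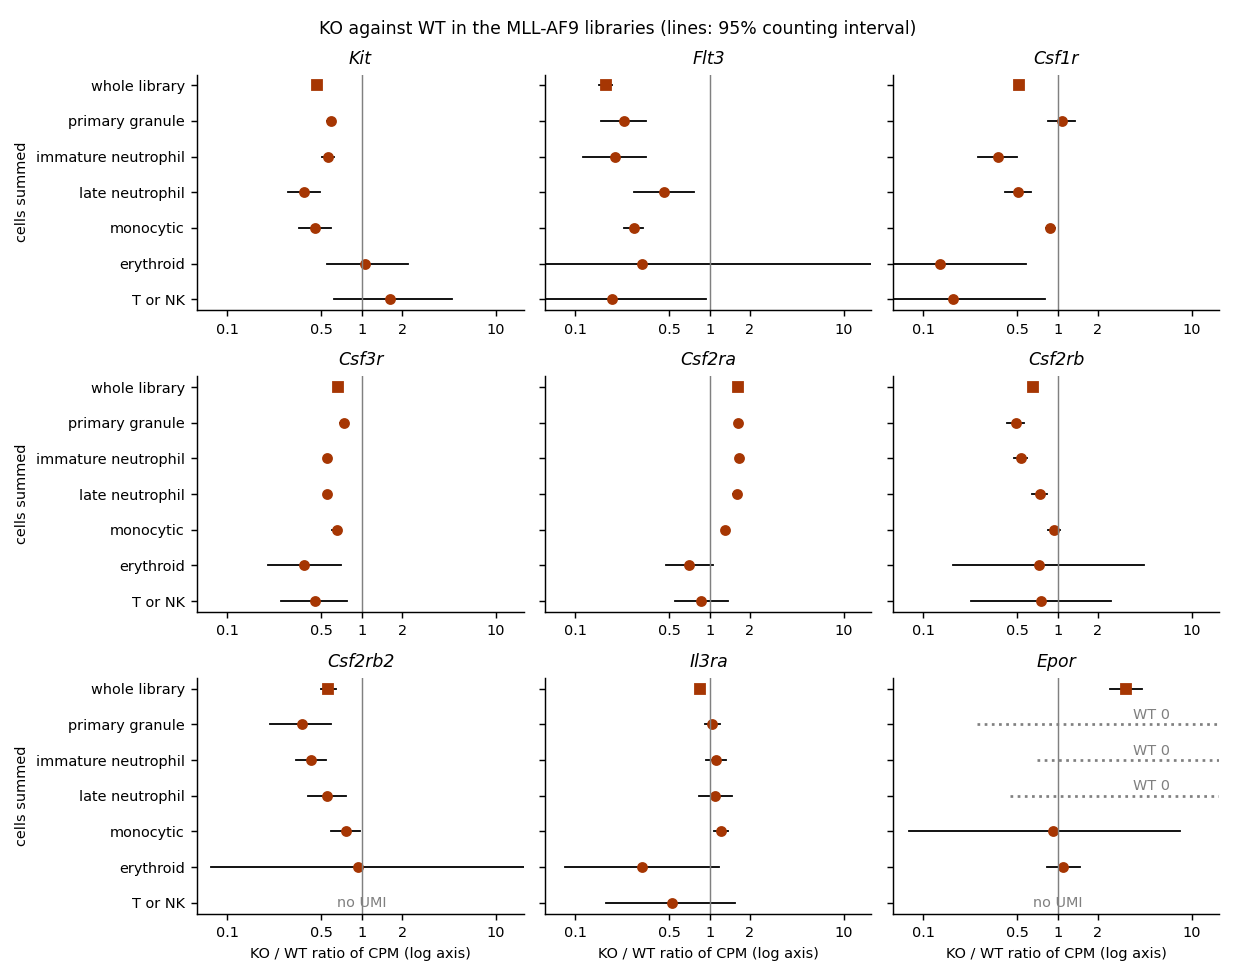
KO over WT ratio of CPM (log axis) in the MLL-AF9 libraries for each receptor, for the whole library (squares) and for 6 gated classes (circles), with 95% counting intervals that are clipped at the frame. Csf2ra lies right of 1 in the 4 myeloid gates. Csf3r lies left of 1 in all 6 gates, though few erythroid and T or NK cells had a Csf3r UMI. Epor, at 3.21 for the library, is near 1 in erythroid cells. Dotted lines mark gates with no WT UMI.

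Across the 6 gates that both leukaemia libraries fill, 6.56% to 19.1% of genes were past 2-fold lower and 2.69% to 8.84% past 2-fold higher in KO. Of all cells, 62.3% in WT and 80.0% in KO were in these gates. Equal class weights gave KO to WT ratios of 0.569 for Kit, 0.268 for Flt3, 1.56 for Csf2ra, 0.680 for Csf2rb and 0.545 for Csf2rb2. Of these 5, Flt3 moved most from its library ratio and stayed past 2-fold. All genes then had a median log2 ratio of -0.27.

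Leukaemia cells showed a higher mean number of receptors per cell than c-Kit+ marrow cells at equal depth, though not for every receptor. With each cell thinned to 2000 UMIs, which left out 1432, 1781, 1190 and 514 shallower cells of WT and KO c-Kit+ marrow and of WT and KO leukaemia, the mean number of the 9 receptors seen in a cell was 0.507, 0.504, 1.02 and 0.905. No receptor UMI was seen in 58.7%, 59.5%, 32.2% and 33.8% of cells. In KO, Csf3r and Csf2ra were seen in 23.4% and 47.4% of leukaemia cells, beside 14.4% and 11.2% of c-Kit+ cells. Csf1r and Il3ra also had larger shares in the KO leukaemia. Kit, Flt3, Csf2rb, Csf2rb2 and Epor had smaller ones there, with overlapping intervals for Csf2rb2. In WT each receptor except Epor had the larger share in leukaemia, with overlapping intervals for Csf2rb. Cells with a Flt3 UMI were 4.50% (4.13 to 4.88) of the WT leukaemia and 0.888% (0.723 to 1.08) of the KO leukaemia. Among erythroid-like cells they were 1.30% (0.0329 to 7.02, 1 of 77) in WT and 0 in KO, where 218 cells allow a share of up to 1.68%. Each library share lies within the interval of its background, so neither is placed above it. Csf3r was seen in 32.2% (31.3 to 33.0) and 23.4% (22.7 to 24.2) of WT and KO leukaemia cells, and in 3.90% and 1.38% of erythroid-like cells. Without thinning the Csf3r shares were 62.0% and 56.6%, at median depths of 5946 and 7420.5 UMIs. Csf2rb2 was seen in 1.12% (0.936 to 1.33) of WT c-Kit+ cells and 1.05% (0.0266 to 5.73) of T or NK-like cells. That background is 1 of 95 cells, too few to place the library share above or below it. In the same library 19.6% of basophil or mast-like cells and 0 of 871 erythroid-like cells had a Csf2rb2 UMI.

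**Figure D4:**
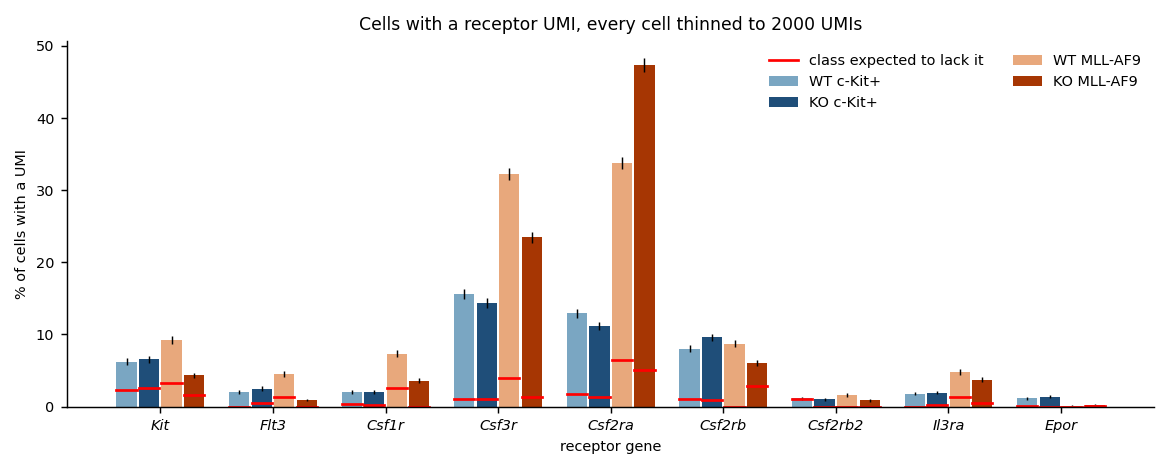
Percentage of cells with at least 1 UMI of each receptor, every cell thinned to 2000 UMIs, with exact 95% Clopper-Pearson intervals. Red lines give the share in a class where the receptor is not known to act (late neutrophils for Kit and Epor, T or NK for the beta chains, erythroid for the rest). Csf2ra reaches 47.4% in the KO leukaemia, and Csf2rb2 in WT c-Kit+ marrow lies at its red line, which rests on 1 of 95 cells.

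Pairs of receptors were compared within single cells, each thinned to 2000 UMIs. In WT c-Kit+ marrow Flt3 was seen in 5.71% (4.13 to 7.67) of cells with a Kit UMI and 1.73% (1.49 to 1.996) of cells without, and in KO c-Kit+ marrow in 7.70% (5.93 to 9.80) of cells with a Kit UMI and 2.13% (1.87 to 2.41) of cells without. In the WT leukaemia the shares were 4.51% with and 4.50% without, and nearly equal. The KO leukaemia was at 2.05% (0.989 to 3.74) with and 0.835% (0.672 to 1.03) without, and these intervals overlap. Beside Csf1r, Flt3 was seen in the WT leukaemia in 11.5% (9.46 to 13.8) of cells with a Csf1r UMI and 3.94% (3.59 to 4.32) of cells without, and in the KO leukaemia in 3.70% with and 0.783% without, but in WT and KO c-Kit+ marrow the shares were 2.21% with and 1.98% without and 3.81% with and 2.46% without, with overlapping intervals. Of the beta chains, Csf2rb2 was seen in WT c-Kit+ marrow in 4.97% (3.66 to 6.57) of cells with a Csf2rb UMI and 0.784% (0.625 to 0.971) of cells without, and in KO c-Kit+ marrow in 2.98% with and 0.779% without. In the WT leukaemia the direction was opposite, at 1.34% with and 1.62% without, with overlapping intervals, and the KO leukaemia was at 1.92% with and 0.775% without. Kit was seen in WT c-Kit+ marrow in 3.74% (2.91 to 4.72) of cells with a Csf3r UMI and 6.69% (6.21 to 7.21) of cells without, and its share beside Csf3r was the lower one in the other 3 libraries too, at 4.79% with and 6.82% without, 8.22% with and 9.74% without and 3.07% with and 4.71% without, with intervals that overlap in the WT leukaemia. Cells of 1 library are not replicates, so these intervals describe each library.

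Other genes of the receptors' pathways were taken from 6 lists and read where their mean reached 5 CPM, and levels are given for the WT and then the KO leukaemia. The lists were chosen with results of these data known, so their counts are a description. Among all genes over that filter 5.5% were past 2-fold higher and 12.6% lower on plain CPM. These shares were not computed with median-ratio size factors. Of the 10 ligands, Csf1 alone passed the filter. It codes for M-CSF, the ligand of Csf1r, and was at 3.19 and 9.56 CPM (ratio 2.99, 2.63 to 3.42). Of 15 other cytokine receptors over the filter 13 were lower in the KO leukaemia (7 with median-ratio size factors), beside 74.6% of all genes on plain CPM. Of them 1 was past 2-fold, Lifr, the receptor for LIF, at 10.2 and 2.69 CPM. The list's median log2 ratio was -0.33, beside -0.38 for all genes, and with median-ratio size factors it was 0.02.

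Among 27 kinases, adaptors and STATs, 5 were past 2-fold lower in the KO leukaemia and none higher, beside 12.6% and 5.5% of all genes, with a list median of -0.23. With median-ratio size factors 2 were past 2-fold lower and 1 higher, and the median was 0.14. Pik3cd, a catalytic subunit of PI3 kinase, was at 132 and 34.4 CPM (ratio 0.260, 0.2503 to 0.270), and its relative Pik3ca at 70.2 and 31.1 CPM. Both genes of STAT5, the factor through which IL-3, GM-CSF and erythropoietin receptors signal, were lower: Stat5b was at 120.0 and 43.6 CPM and Stat5a at 20.7 and 8.91 CPM. Of 17 inhibitors, with a median of 0.03, Socs1, which blocks JAK kinases, was past 2-fold higher (5.85 and 14.95 CPM), and the phosphatase gene Inpp5d (239 and 102 CPM) and the RAS pathway inhibitor Spred1 (16.1 and 6.005 CPM) were past 2-fold lower, though neither was with median-ratio size factors.

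Of 12 STAT5 and growth factor target genes, 6 were past 2-fold higher in the KO leukaemia and none was past 2-fold lower, beside 5.5% and 12.6% of all genes. The list does not give the direction in which each target responds. Its median was 0.79, and the counts were the same with median-ratio size factors. The immediate early gene Egr1 was at 10.2 and 622 CPM (ratio 60.9, 57.1 to 65.0), the cytokine gene Osm at 10.3 and 242 CPM, the survival gene Mcl1 at 221 and 1429.9 CPM and the kinase gene Pim1 at 40.9 and 177 CPM. Short of 2-fold, Myc, Ccnd3 and Bcl6 were lower in KO, with ratios of 0.508, 0.768 and 0.790. Cish, Ccnd2 and Bcl2l1 were at 1.39, 1.10 and 1.01, and the interval of Bcl2l1 holds 1. Below the filter, Pim2, Socs2, Ccnd1 and Etv5 were at 0.943, 0.987, 0.710 and 1.51, and the intervals of Pim2 and Socs2 hold 1. Those short of 2-fold or below the filter were named after their values were seen. With median-ratio size factors 2 genes of the list were lower. Egr1, Osm and Pim1 were below the c-Kit+ libraries in the WT leukaemia (114, 70.3 and 96.7 CPM in WT c-Kit+ marrow) and above them in the KO leukaemia. Of 9 transcription factors that act on receptor promoters, Cebpb, a myeloid factor, was past 2-fold higher (443 and 1342 CPM) and Myb, a progenitor factor, past 2-fold lower (314 and 145 CPM), beside 5.5% and 12.6% of all genes, and with median-ratio size factors no factor was past 2-fold lower. In the c-Kit+ pair no gene of the 6 lists was past 2-fold.

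**Figure D5:**
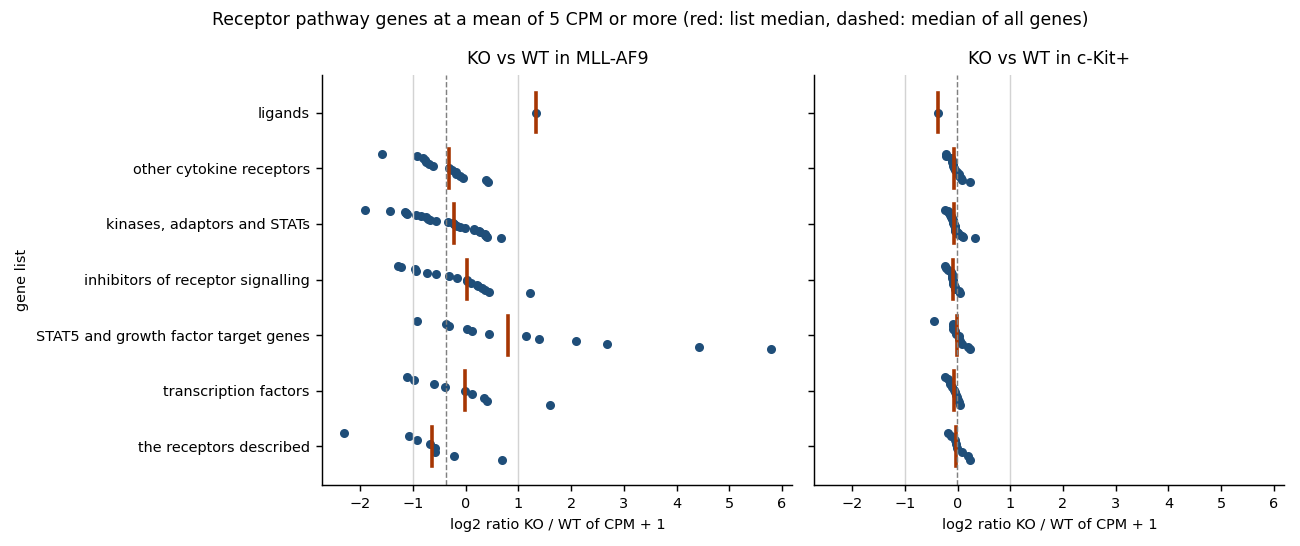
Log2 ratio of KO over WT (CPM + 1) for each receptor pathway gene with a mean of 5 CPM or more (points), in the MLL-AF9 pair (left) and the c-Kit+ pair (right), with list medians in red, the median of all genes dashed and grey lines at 2-fold. The points spread in leukaemia, with Egr1 at 5.80, and lie within 2-fold in c-Kit+ marrow.

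The genes with the most similar profile were ranked by Pearson's r of log2(CPM + 1) over 39 sums of a library and a class. These points share libraries and depth, so r is a description. For Kit they were Mgmt (0.76), Serf1 (0.73) and Mipep (0.72), for Flt3 Cds1 (0.85), Bmyc (0.83) and Csad (0.83) and for Csf1r Ptpro (0.93), Vis1 (0.92) and Pid1 (0.92). For Csf3r they were Ebi3 (0.90), Tirap (0.89) and Fgd4 (0.88), and for Csf2ra Pstpip2 (0.93), Igsf6 (0.92) and Spi1 (0.91). For Csf2rb they were Alox5ap (0.87), Hk2 (0.86) and Lmo4 (0.84), for Csf2rb2 Nlrp3 (0.74), Frmd8os (0.74) and Rhbdf2 (0.72) and for Il3ra Fndc3b (0.84), Glipr1 (0.84) and Plac8 (0.80). For Epor they were Slc6a9 (0.96), Paqr9 (0.95) and Tspo2 (0.94). Among the receptors themselves the closest pairs were Csf3r with Csf2ra (0.84) and Csf2rb with Csf2rb2 (0.81).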

How the data were processed

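The deposited files hold raw UMI counts per gene and cell barcode, made by the authors with Cell Ranger 7.1.0 on mm10 per the submitters' processing notes; the annotation and strand setting are not given in the sources used here. Cells with at least 500 genes, 1000 UMIs and at most 10% mitochondrial UMIs were kept, and counts were summed per library and gate and scaled to a library sum of 1000000 (CPM). Doublets were kept, and Scrublet (scanpy 1.11.5) called 3.09% to 4.46% of cells. A marker was on when its share of a cell's UMIs exceeded its mean over the 4 libraries, ties between classes were left ungated, and 14 sets of 97 markers were used (1 further marker, Vpreb1, was not among the features).

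Each group is 1 library, so no test was made. Levels have exact Poisson intervals, ratios exact conditional binomial intervals and shares Clopper-Pearson intervals at 95%. A count of 0 was read as allowing up to 3 counts. Unique molecular identifiers remove PCR copies, and the intervals cover counting error only. Calls were 2-fold on log2(CPM + 1) among genes whose mean CPM was at least 5, with median-ratio size factors beside them. Class-weighted ratios averaged the gates with 50 or more cells in both libraries.

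All 9 receptors were named. From each pathway list, the genes past 2-fold in the KO against WT leukaemia comparison were named, up to 4 per direction with the largest ratios. For each receptor, the 3 genes of highest correlation were named, among genes reaching 20 CPM in at least 1 gate and leaving out markers, receptors and gene models named by a number. The receptors and lists were chosen with earlier results of these data known. Gene positions are from GENCODE M21, which held 51948 of 56941 feature identifiers and all 9 receptors; promoters are from RefSeq. Python 3.11.15, numpy 2.4.6, scipy 1.17.1, pandas 2.3.3, matplotlib 3.10.9 and Biopython 1.88 were used. The ratio, gate and thinning steps were checked on simulated data. Alternatives changed the cell filter, doublet removal, scaling, pseudocount, filter, fold, gate rules, cell weights and thinning depth.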

Additional observations from a re-analysis of the deposited data

Results flagged for a closer look

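For Flt3, Csf2ra and Csf2rb the KO against WT difference had opposite directions in the leukaemia and c-Kit+ pairs, each beyond counting error. The log2 KO over WT ratio in MLL-AF9 minus that in c-Kit+ was -2.56 for Flt3, 0.88 for Csf2ra and -0.79 for Csf2rb. Flt3 and Csf2rb were lower in the KO leukaemia and higher in KO c-Kit+ marrow, and Csf2ra the reverse. With 1 library per group the difference between the pairs was not tested.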

How the results depend on the processing

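No paired analysis was possible because each group is 1 library, and no library could be left out. In KO against WT leukaemia, the number of receptors past 2-fold lower was 2, and was 1 with median-ratio size factors, with a pseudocount of 5 CPM or with the same class weights in both libraries. The number past 2-fold higher was 0, and was 1 with Scrublet doublets removed, 2 with median-ratio size factors and 1 with a pseudocount of 0.1 CPM. In KO against WT c-Kit+ marrow, 6 receptors were lower, and 3 with the same class weights. In leukaemia against c-Kit+ marrow in WT, the number of receptors lower was 1, 2 with median-ratio size factors and 0 with the same class weights; the same weights moved the number past 2-fold lower from 1 to 0 and past 2-fold higher from 4 to 2. In KO, the number past 2-fold higher moved from 1 to 2 with at least 1000 genes and at most 5% mitochondrial UMIs per cell. The same class weights turned the log2 ratio of Epor in leukaemia against c-Kit+ marrow to 0.044 in WT and 0.20 in KO. In the KO leukaemia the share of cells with Csf2rb2 was higher by 1.15 percentage points beside Csf2rb, and by -0.029 with cells thinned to 1000 UMIs; depth limits such pairs. The same class weights use only the cells of shared gates, and the cause of the other changes was not tested. Of 324 recomputed log2 ratios, 220 stayed within the counting interval of the reported value and 102 moved further. Besides the 2 values of Epor above, smaller ratios changed sign under 1 to 3 alternatives for Il3ra in KO against WT leukaemia, for Csf1r, Csf2rb2 and Epor in KO against WT c-Kit+ marrow, and in leukaemia against c-Kit+ marrow for Csf2rb in WT and for Csf1r and Csf2rb2 in KO.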
